A study of Homo sapiens and Mus musculus with 13 samples.

Results

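The pregnancy-specific glycoprotein genes (PSG1 to PSG9 and PSG11) were followed across 7 RNA-Seq libraries of MDA-MB-231, a human triple-negative breast cancer cell line. These 10 genes were taken by name from the 24523 gene symbols of the table, and all 10 were among the 12636 genes with a mean of at least 0.5 FPKM (fragments per kilobase of transcript for a fixed number of mapped fragments) over the 7 libraries. PSG3, with a mean of 0.540 FPKM, passed through the KDM5C-KD lines and had a mean of 0.453 FPKM over the other 5 libraries. The family was chosen by measured values of these same libraries, because PSG2 had stood out as far higher in the KDM5C-KD lines than in Control. Values that involve KDM5C-KD or Control are therefore given as a description, without a test.

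All 7 lines were MDA-MB-231 cells that had received Cas9 and guide RNA by lentivirus and were selected with puromycin. Control carried an sgRNA against GFP. TRIM11-KD1 and TRIM11-KD2 carried TRIM11-sgRNA1 and TRIM11-sgRNA2, and KDM5C-KD1 and KDM5C-KD2 carried KDM5C-sgRNA1 and KDM5C-sgRNA2. The double knockdown lines both carried KDM5C-sgRNA2, together with TRIM11-sgRNA1 in DKD1 and TRIM11-sgRNA2 in DKD2. TRIM11 is a ubiquitin E3 ligase, and KDM5C is a demethylase of histone H3 lysine 4 whose link to TRIM11 is the question of the study. Each line gave 1 library, so the 2 lines of a knockdown differ in guide as well as in culture, and Control has no replicate.

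KDM5C mRNA was 30.3 FPKM in Control, 29.8 and 28.4 in TRIM11-KD1 and TRIM11-KD2, and between 18.8 and 22.7 in the 4 lines with a KDM5C guide. TRIM11 mRNA was 12.6 FPKM in Control, 10.6 in TRIM11-KD2 and 9.38 in DKD2, but 13.4 in the library labelled TRIM11-KD1 and 16.1 in the library labelled DKD1. A Cas9 cut need not lower an mRNA, so these values do not show what happened to the protein, and every direction drawn from those 2 libraries below rests on their labels. For the cell line itself, VIM lay between 1038 and 1309 FPKM, ESR1 reached at most 0.0234 FPKM, PGR was listed at 0 in every library and ERBB2 lay between 17.8 and 23.7 FPKM. EPCAM, an epithelial gene, was between 4.03 and 6.77 FPKM in Control and the TRIM11-KD lines. In the 4 lines with a KDM5C guide it was between 10.3 and 12.3 FPKM. KRT18 split in the same way (296 to 342 and 390 to 440 FPKM), as did 5.64% of all genes. CDH1, also an epithelial gene, did not, with 1.07 to 1.98 FPKM without a KDM5C guide and 0.615 to 1.62 FPKM with one. The part of these genes in the PSG values was not tested. Read numbers are not part of the table, which leaves the depth unknown and allows no counting error, and total FPKM was between 493543 and 513462.

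PSG proteins are secreted glycoproteins of the immunoglobulin superfamily. They belong to the same family as the CEACAM cell adhesion molecules. The syncytiotrophoblast, the outer layer of the placenta, releases them into the maternal blood in large amounts during pregnancy. Some of them are known to bind and activate latent TGF-beta and to bind integrins and heparan sulfate, and their RNA or protein has also been detected in some tumours.

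The genes lie in 1 cluster on the long arm of chromosome 19, all on the minus strand. In hg19, with positions from GENCODE, the order was PSG3 (chr19:43225790-43244633), PSG8 (chr19:43256838-43269830), PSG1 (chr19:43370616-43383974), PSG6 (chr19:43406238-43423715), PSG7 (chr19:43428284-43441359), PSG11 (chr19:43511808-43530626), PSG2 (chr19:43568361-43587197), PSG5 (chr19:43670408-43690688), PSG4 (chr19:43696854-43711451) and PSG9 (chr19:43715943-43773682). The annotated pseudogene PSG10P (chr19:43348509-43359771) sits between PSG8 and PSG1 and is followed beside the 10 members. The nearest gene of the lists used here on the lower side was CEACAM8, which ends at position 43099207, and on the upper side CD177, which starts at position 43857838.

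The copies are close enough that the sequences matter for how the values are read. The first 60 coding bases of each member are shown because they let the likeness be seen directly. They were read from 1 GENCODE transcript a gene, annotated on hg19, 5′ to 3′, and capitals mark a base that differs from that of PSG3, the gene at the low-coordinate end of the cluster.
PSG3: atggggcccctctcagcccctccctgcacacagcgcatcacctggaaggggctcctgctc
PSG5: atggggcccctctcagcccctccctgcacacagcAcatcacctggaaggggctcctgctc
PSG4: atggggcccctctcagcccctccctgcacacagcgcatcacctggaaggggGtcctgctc
PSG8: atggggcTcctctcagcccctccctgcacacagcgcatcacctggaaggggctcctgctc
PSG9: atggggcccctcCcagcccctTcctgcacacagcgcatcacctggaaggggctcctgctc
PSG6: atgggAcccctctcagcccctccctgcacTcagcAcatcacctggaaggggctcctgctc
PSG1: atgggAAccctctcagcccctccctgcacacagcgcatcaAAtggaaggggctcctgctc
PSG7: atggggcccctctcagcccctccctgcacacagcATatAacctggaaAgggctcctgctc
PSG11: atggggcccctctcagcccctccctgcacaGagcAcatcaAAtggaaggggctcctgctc
PSG2: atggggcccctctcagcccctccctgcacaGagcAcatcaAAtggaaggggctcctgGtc
Only 15 of the 60 positions varied among the 10 genes. PSG2 differed from PSG3 at 5 positions, PSG1, PSG7 and PSG11 differed from it at 4 positions each, and PSG4, PSG5 and PSG8 at 1.

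Over the aligned parts of the transcripts, with gaps left out, the 45 pairs of members were 82.5 to 95.5% identical, with a median of 91.6%. PSG3 and PSG5 were the closest pair. Identical stretches as long as a read were less common. The share of 150-base windows of a transcript found without a mismatch in the transcript of another PSG or CEACAM gene was 0% in PSG4 and PSG9 and at most 2.93%, in PSG1. How fragments that matched several copies were divided between them is not recorded in the table, and Cufflinks by default divides such fragments evenly. The sum over the members can move with that division too, since FPKM divides by transcript length and genes outside the sum, such as PSG10P, can share reads with it. Values of single members are uncertain to the extent that reads were shared.

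Upstream sequence from RefSeq (a table built on GRCh38.p14) was at hand for PSG3, PSG4 and PSG5. The 250 bases before the RefSeq start of each are shown, since no other member had such sequence at hand. PSG4 and PSG5, neighbours in the cluster, had related profiles over the libraries (r = 0.839). PSG3, at about 1 FPKM or less, did not (0.213 with PSG4 and 0.103 with PSG5). Any link between these sequences and the profiles was not tested. Each was found exactly once on chromosome 19 of hg19, the only chromosome searched. The places were chr19:43244634-43244883 for PSG3, chr19:43709791-43710040 for PSG4 and chr19:43690689-43690938 for PSG5. The PSG4 window lies inside the GENCODE span of PSG4 given above. Each is printed on the minus strand, with GGGCGG (on either strand) or CCCACCC in capitals.
PSG3: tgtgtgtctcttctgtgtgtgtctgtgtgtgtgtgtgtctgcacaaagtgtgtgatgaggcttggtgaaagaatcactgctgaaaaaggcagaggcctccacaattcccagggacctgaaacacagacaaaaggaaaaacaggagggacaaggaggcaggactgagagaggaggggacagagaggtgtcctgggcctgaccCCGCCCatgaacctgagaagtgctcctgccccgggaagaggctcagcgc
PSG4: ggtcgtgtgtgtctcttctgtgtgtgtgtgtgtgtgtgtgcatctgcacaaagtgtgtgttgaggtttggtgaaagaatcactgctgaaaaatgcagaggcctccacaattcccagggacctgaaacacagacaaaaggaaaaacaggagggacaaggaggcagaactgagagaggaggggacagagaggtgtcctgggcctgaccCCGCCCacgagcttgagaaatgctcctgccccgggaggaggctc
PSG5: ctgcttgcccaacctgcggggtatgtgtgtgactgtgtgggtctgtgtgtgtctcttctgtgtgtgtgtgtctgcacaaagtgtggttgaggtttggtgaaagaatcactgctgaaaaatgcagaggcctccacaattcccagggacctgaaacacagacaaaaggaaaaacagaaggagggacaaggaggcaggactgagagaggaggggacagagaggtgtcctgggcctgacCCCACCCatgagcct
PSG4 and PSG5 were 98.1% identical over 207 aligned bases, PSG3 and PSG5 96.3% over 214 bases, and PSG3 and PSG4 95.1% over 245 bases. In PSG5 the capitals directly follow the run gggcctgac, and in PSG3 and PSG4 a further c lies between the run and the capitals. GGGCGG, the core of the GC box, was found in PSG3 and PSG4 and in 42.6% of the 35116 promoters of the table, and CCCACCC, a box of the kind that KLF factors bind, was found in PSG5 and in 18.2% of all promoters. All motifs were searched on both strands. None of the 3 held the TATA box TATAAA (10.7% of all promoters), the E-box CACGTG (6.34%) or the ETS core CCGGAA (14.5%). These matches are letters in a window and not shown sites.

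Summed over the 10 members, PSG expression was 69.8 FPKM in Control. It was 95.7 FPKM in TRIM11-KD1 and 110.2 FPKM in TRIM11-KD2, 121.3 FPKM in KDM5C-KD1 and 217.8 FPKM in KDM5C-KD2, and 49.8 FPKM in DKD1 and 117.6 FPKM in DKD2. The highest library, KDM5C-KD2, was therefore 4.37 times the lowest, DKD1. Both KDM5C-KD lines were above Control and above both TRIM11-KD lines, and the DKD lines lay on opposite sides of Control. In bulk RNA, fewer cells expressing a gene and less RNA per cell cannot be told apart.

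As ratios of group means, the sum in KDM5C-KD was 2.43 times that in Control, with the single lines at 1.74 and 3.12 times. TRIM11-KD was at 1.48 times Control (1.37 and 1.58 for the single lines), and DKD was at 1.20 times (0.714 and 1.69). DKD was 0.494 times KDM5C-KD (0.294 to 0.694 with 1 line left out) and 0.813 times TRIM11-KD. The second ratio differed with the TRIM11 guide, being 0.521 for the library labelled DKD1 against the library labelled TRIM11-KD1 and 1.07 for DKD2 against TRIM11-KD2. Lines of the same knockdown were also apart, with KDM5C-KD2 at 1.80 times KDM5C-KD1 and DKD2 at 2.36 times DKD1. The 2 DKD lines thus differed from each other by more than the group means of DKD and KDM5C-KD did. In the order of the sums, DKD2, TRIM11-KD2 and KDM5C-KD1 lay between 110.2 and 121.3 FPKM although they came from 3 different groups, and with 2 lines a group they cannot be set apart.

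**Figure D1:**
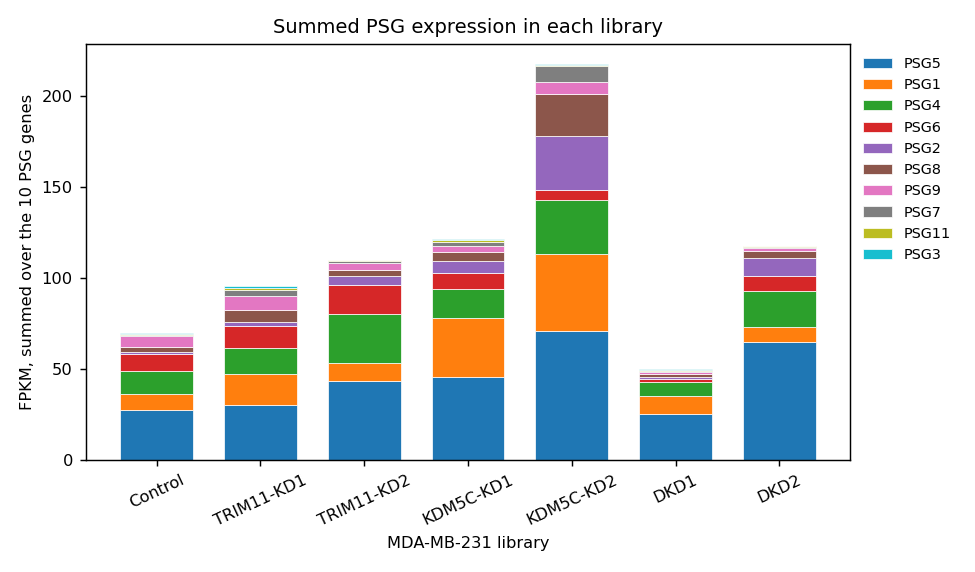
Summed FPKM of the 10 PSG genes (vertical axis) in each of the 7 MDA-MB-231 libraries (horizontal axis), with 1 bar a library and 1 colour a gene. The bar of KDM5C-KD2 reaches 217.8 FPKM and that of DKD1 49.8 FPKM, and PSG5 fills 31.4 to 55.2% of every bar.

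PSG5 alone held 39.2% of the sum in Control and between 31.4% (TRIM11-KD1) and 55.2% (DKD2) in all libraries. Without it the sum was 42.4 FPKM in Control, 65.6 and 66.9 in TRIM11-KD, 75.5 and 147 in KDM5C-KD, and 24.5 and 52.7 in DKD. DKD2 thus came closer to Control once PSG5 was left out. The composition also differed between libraries. PSG2 made up 2.21% of the sum in Control and 13.5% in KDM5C-KD2, while PSG6 made up 13.2% in Control and 2.72% in KDM5C-KD2.

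The members with the highest levels per length were PSG5, PSG1 and PSG4. PSG5 was at 27.4 FPKM in Control, 30.1 and 43.3 in the first and second line of TRIM11-KD, 45.8 and 70.8 in those of KDM5C-KD, and 25.3 and 65.0 in those of DKD. It varied least among the 10 genes as a ratio, by 2.80 times from the lowest to the highest library, and DKD2 was close to KDM5C-KD2 while DKD1 was close to Control. PSG4 had 12.5 FPKM in Control, 13.8 and 26.5 in TRIM11-KD, 15.8 and 29.6 in KDM5C-KD, and 7.42 and 20.1 in DKD. In PSG4 the second line was the higher in every knockdown, and the 3 knockdown groups overlapped.

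PSG1 encodes the best studied member, known to activate latent TGF-beta. Its level was 8.96 FPKM in Control, 17.4 and 10.3 in TRIM11-KD, 32.3 and 42.3 in KDM5C-KD, and 10.1 and 7.93 in DKD. PSG1 was the only member in which both KDM5C-KD lines, at 3.61 and 4.72 times Control, were above all 5 other libraries. Both DKD lines, which share KDM5C-sgRNA2 with KDM5C-KD2, lay at 1.13 and 0.885 times Control.

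PSG6 and PSG9 behaved differently from these. PSG6 had 9.19 FPKM in Control, 12.5 and 16.0 in TRIM11-KD, 8.89 and 5.92 in KDM5C-KD, and 1.84 and 8.24 in DKD. All 4 lines with a KDM5C guide were below the 3 libraries without one, although KDM5C-KD1 and Control were only 8.89 and 9.19 FPKM apart. PSG9 had 5.79 FPKM in Control, 7.999 and 3.83 in TRIM11-KD, 3.28 and 6.65 in KDM5C-KD, and 1.305 and 1.79 in DKD. Both DKD lines were the lowest libraries for PSG9, at 0.225 and 0.308 times Control, while the TRIM11-KD and KDM5C-KD lines lay on both sides of Control.

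PSG2, PSG8 and PSG7 had the widest ranges. PSG2, the gene through which the family was selected, had 1.54 FPKM in Control, 1.95 and 5.12 in TRIM11-KD, 6.57 and 29.4 in KDM5C-KD, and 1.04 and 9.63 in DKD. Its highest library was 28.2 times its lowest. On the log2(FPKM + 1) scale the range of PSG2 over the 7 libraries was 3.90, wider than that of 99.5% of all genes tested, whose median range was 0.56 and 95th percentile 1.65. Since PSG2 was selected for its high values in KDM5C-KD, nothing is read from this rank.

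PSG8 had 2.56 FPKM in Control, 6.43 and 3.30 in TRIM11-KD, 4.86 and 23.0 in KDM5C-KD, and 1.47 and 3.82 in DKD. PSG7 had 1.01 FPKM in Control, 3.33 and 1.03 in TRIM11-KD, 2.01 and 8.62 in KDM5C-KD, and 0.636 and 0.574 in DKD. In PSG2, PSG7 and PSG8 alike the value of KDM5C-KD2 was over 4 times that of KDM5C-KD1, with ratios of 4.48, 4.28 and 4.74. In PSG7 and PSG8 the library labelled TRIM11-KD1 was above KDM5C-KD1, so KDM5C-KD1 by itself did not stand apart from the lines without a KDM5C guide.

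PSG3 and PSG11 were expressed at about 1 FPKM or less. PSG3 had 0.405 FPKM in Control, 1.11 and 0.285 in TRIM11-KD, 0.668 and 0.850 in KDM5C-KD, and 0.216 and 0.247 in DKD. PSG11 had 0.476 FPKM in Control, 1.02 and 0.560 in TRIM11-KD, 1.09 and 0.567 in KDM5C-KD, and 0.487 and 0.314 in DKD. For both, the highest library was a first-guide line, TRIM11-KD1 for PSG3 and KDM5C-KD1 for PSG11, and their ranges on the log2(FPKM + 1) scale were 0.80 and 0.67, under the 95th percentile of all genes. The median range of the 10 members was 2.12.

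**Figure D2:**
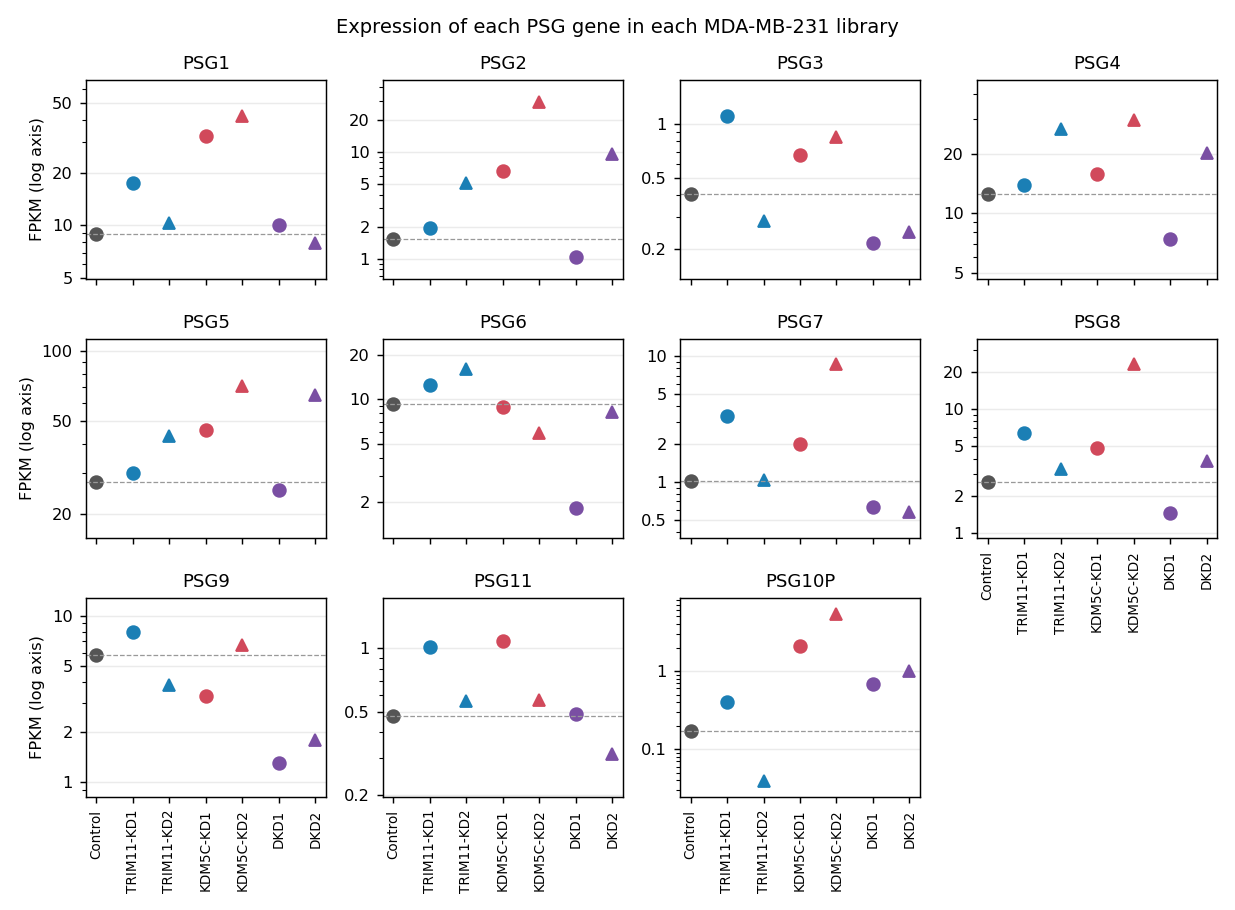
FPKM of each PSG gene and of PSG10P (vertical axes, log scale, a range of its own in each panel) in the 7 libraries (horizontal axis), with 1 point a library, circles for Control and first lines, triangles for second lines, and a dashed line at the Control value. A DKD line is the lowest point for all 10 members and KDM5C-KD2 is the highest for 6 of them, whereas PSG10P is lowest in TRIM11-KD2 at 0.0394 FPKM.

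The lowest of the 7 libraries was a DKD line for all 10 members, DKD1 for 7 and DKD2 for 3, and across all genes tested this was so for 30.9%. Without the libraries labelled TRIM11-KD1 and DKD1, DKD2 was the lowest of the remaining 5 for 5 members and for 21.0% of all genes. The highest library was KDM5C-KD2 for 6 members (24.3% of all genes), TRIM11-KD1 for PSG3 and PSG9, TRIM11-KD2 for PSG6 and KDM5C-KD1 for PSG11. Members that share reads or a profile are not independent of each other, so these counts carry no test.

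Next to Control, in which expression without either guide is seen, KDM5C-KD had 6 members at least 1.5 times higher in both lines, namely PSG1, PSG2, PSG3, PSG5, PSG7 and PSG8. This was so for 5.22% of all genes, and since the family was selected on this contrast nothing is read from the difference. PSG2 was at 4.26 and 19.1 times Control and PSG8 at 1.90 and 8.99 times. No member was at least 1.5 times lower in both lines (3.97% of all genes). PSG4 and PSG11 were above Control in both lines but under 1.5 times in 1 of them, PSG9 was at 0.567 and 1.15 times, and PSG6 at 0.967 and 0.644 times.

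In TRIM11-KD no member was at least 1.5 times above Control in both lines (3.25% of all genes) or at least 1.5 times below it in both (2.58%). The members past 1.5 times were not the same in the 2 lines. In the library labelled TRIM11-KD1, where TRIM11 mRNA was not lowered, all 10 members were above Control (47.3% of all genes) and 5 of them by at least 1.5 times (5.52%), with PSG7 at 3.29, PSG3 at 2.75 and PSG8 at 2.51 times. In TRIM11-KD2, 8 members were above Control (48.6% of all genes) and 4 by at least 1.5 times (8.71%), with PSG2 at 3.32 and PSG4 at 2.13 times, and PSG3 and PSG9 were below it.

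In DKD no member was at least 1.5 times above Control in both lines (5.71% of all genes) and 3 members, PSG3, PSG7 and PSG9, were at least 1.5 times below it in both (4.87%). In the library labelled DKD1, 8 members were below Control (51.0% of all genes), 6 of them by at least 1.5 times (8.68%), the furthest being PSG6 at 0.200 times and PSG9 at 0.225 times. In DKD2, 6 members were below Control (49.8% of all genes) and PSG2, PSG5, PSG4 and PSG8 were above it, at 6.24, 2.37, 1.62 and 1.49 times. The first 3 of these are neighbours in the cluster, next to PSG9 at 0.308 times Control, and PSG8 lies near its other end.

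**Figure D3:**
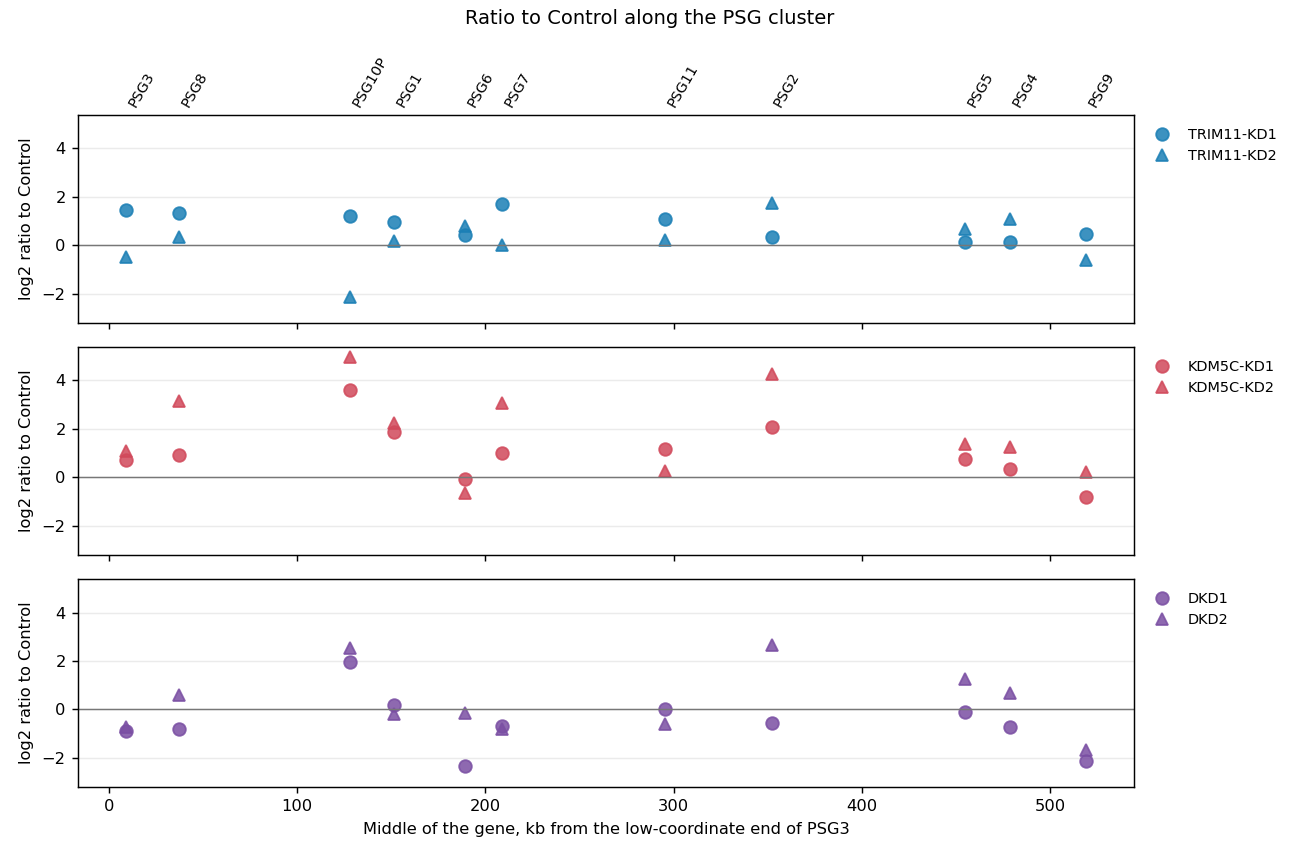
Log2 ratio of FPKM to Control (vertical axis) for the 10 PSG genes and PSG10P, set out by the middle of each gene in kb from the low-coordinate end of PSG3 (horizontal axis), with 1 panel a knockdown, circles for the first line and triangles for the second. In DKD2 the triangles of PSG2, PSG5 and PSG4 stand at 2.64, 1.25 and 0.69, that of PSG8 near the other end at 0.57, and that of PSG9, beside PSG4, at -1.70.

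KDM5C-KD2, DKD1 and DKD2 carry the same KDM5C guide, and the DKD lines add a TRIM11 guide. All 10 members were lower in DKD1 than in KDM5C-KD2 (51.9% of all genes), 9 of them by at least 1.5 times (11.4%). In DKD2, 9 were lower than in KDM5C-KD2 (49.7%), 7 of them by at least 1.5 times (12.3%). The exception was PSG6, at 8.24 FPKM in DKD2 and 5.92 in KDM5C-KD2. Against both KDM5C-KD lines together, both DKD lines were below in 6 members (PSG1, PSG3, PSG7, PSG8, PSG9 and PSG11) and in 22.0% of all genes. PSG7 had the smallest ratio of group means, 0.114, followed by PSG8 at 0.189 and PSG1 at 0.241. This comparison shares KDM5C-KD with the one that selected the family, so it too is a description.

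DKD against TRIM11-KD was the comparison that used neither Control nor KDM5C-KD as a group, and it asks what a KDM5C guide adds to a TRIM11 guide. No PSG gene passed the test. With limma on log2(FPKM + 1) over the 6 knockdown libraries, where KDM5C-KD served only for the estimate of the spread, 0 of 12636 genes (0%) had a Benjamini-Hochberg adjusted p under 0.05, and the adjusted p of the members was between 0.702 and 0.982. At an unadjusted p under 0.05 there were 888 genes (7.03%), 413 of them lower in DKD (3.27%), and 2 members were among the latter, PSG6 and PSG9. The smallest p that an exact permutation of 2 lines against 2 can give is 0.333.

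PSG9 differed by -1.38 ± 0.39 (log2, SE, n = 2 lines a group, limma adjusted p = 0.702), with a 95% confidence interval from -2.32 to -0.44. PSG6 differed by -1.56 ± 0.53 (log2, SE, n = 2 lines a group, limma adjusted p = 0.702), with an interval from -2.86 to -0.27. The PSG6 estimate was -0.71 without DKD1 and -2.42 without DKD2. In both genes the values of DKD and TRIM11-KD did not overlap, with 1.305 and 1.79 against 7.999 and 3.83 FPKM for PSG9 and 1.84 and 8.24 against 12.5 and 16.0 FPKM for PSG6. The whole set of members with both DKD lines below both TRIM11-KD lines was PSG1, PSG3, PSG6, PSG7, PSG9 and PSG11, 6 of 10, and 19.3% of all genes did the same.

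For PSG1 the difference was -0.53 ± 0.27 on the log2 scale, with an interval from -1.19 to 0.13 that includes no difference. PSG7 and PSG8 were lower by estimate (-0.89 and -0.71) with intervals from -2.33 to 0.56 and from -2.41 to 0.98. PSG2 and PSG5 were the members with an estimate above 0, at 0.13 ± 0.95 and 0.17 ± 0.45. In these 2 genes the 2 guides gave opposite signs, since PSG2 was lower in the library labelled DKD1 than in the library labelled TRIM11-KD1 (1.04 and 1.95 FPKM) and higher in DKD2 than in TRIM11-KD2 (9.63 and 5.12 FPKM). An interval as wide as that of PSG2, from -2.18 to 2.45, leaves a difference of several fold in either direction undetectable with these lines.

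Taken over the list, 8 of 10 members were lower in DKD by estimate, next to 47.8% of all genes, and the median log2 difference of the members was -0.57, next to 0.01 for all genes. PSG3 is 1 of the 8 and passed the filter through KDM5C-KD. All 10 members were lower in the library labelled DKD1 than in the library labelled TRIM11-KD1 (48.6% of all genes), 9 of them by at least 1.5 times (8.09%). With TRIM11-sgRNA2, 7 members were lower in DKD2 than in TRIM11-KD2 (47.1% of all genes), 4 of them by at least 1.5 times (5.75%).

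**Figure D4:**
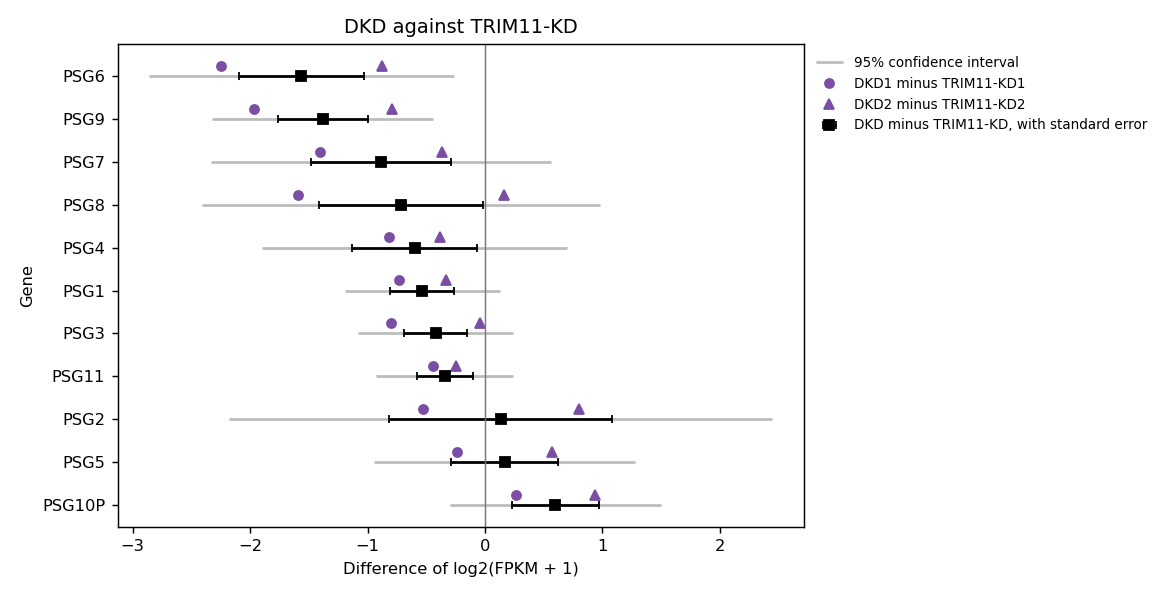
Difference of log2(FPKM + 1) between DKD and TRIM11-KD (horizontal axis) for each PSG gene and PSG10P (vertical axis), with the limma estimate as a black square, its standard error as a black bar, its 95% confidence interval as a grey line, and the pairs of lines that share a TRIM11 guide as purple points. The intervals of PSG6 and PSG9 end below 0, at -0.27 and -0.44, and the other 9 include 0.

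Sorting the libraries only by the KDM5C guide, no member had all 4 lines with the guide above the 3 without it (5.64% of all genes), and PSG6 alone had all 4 below (5.07%). The pseudogene PSG10P was the 1 PSG entry with all 4 above. It had 0.172 FPKM in Control, 0.400 and 0.0394 in TRIM11-KD, 2.11 and 5.42 in KDM5C-KD, and 0.677 and 0.992 in DKD. Both DKD lines were above Control, at 3.93 and 5.75 times, and in limma DKD against TRIM11-KD gave 0.60 ± 0.37 (log2, SE, adjusted p = 0.737). PSG10P was added to the 10 genes as the pseudogene of the cluster, and it passed the filter only through KDM5C-KD (a mean of 0.456 FPKM over the other 5 libraries). Its transcript was up to 94.5% identical to that of a member, PSG5, over 966 aligned bases.

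The members did not form 1 profile. Among their 45 pairs, the Pearson correlation of log2(FPKM + 1) over the 7 libraries ran from -0.185 to 0.964, with a median of 0.459, and 4 pairs were below 0. PSG2, PSG4 and PSG5 were alike (r from 0.839 to 0.964), as were PSG7 and PSG8 (0.944) and PSG1 and PSG7 (0.873), whereas PSG5 and PSG11 had -0.185 and PSG1 and PSG6 -0.005. PSG2, PSG5 and PSG4 follow each other in the cluster, and PSG7 and PSG8 do not. These correlations describe 7 libraries that share their line of origin, and reads shared between copies also enter them.

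The PSG values were set beside other placental genes, which are background for the tissue that normally makes PSG. Of 32 placental genes sought, 30 were listed and 7 passed the filter, and 12 of those listed were at 0 in all 7 libraries. Genes at 0 throughout included CGA, the alpha subunit of chorionic gonadotropin, CSH1, placental lactogen, LGALS13, a placental galectin, and HLA-G. HSD3B1, the placental enzyme that makes progesterone, was at 0.754 FPKM in Control and at most at 0.356 FPKM in the lines with a KDM5C guide. In all, 23 of the 30 placental genes listed were under the filter.

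Of the 7 placental genes that passed, in KDM5C-KD both lines were at least 1.5 times higher than Control for 3 genes (5.22% of all genes) and lower for 1 (3.97%). In DKD 4 were above (5.71%) and 1 below (4.87%), and in TRIM11-KD 1 was above (3.25%). PLAC1 was the gene below in KDM5C-KD and in DKD. It had 2.01 FPKM in Control, 1.63 and 0.519 in TRIM11-KD, 0.874 and 1.18 in KDM5C-KD, and 1.19 and 0.794 in DKD. ADAM12 was above in all 3 knockdowns, with 0.374 FPKM in Control and 0.678 to 1.88 in the knockdown lines. PAPPA, above in DKD, had 0.262 FPKM in Control and 0.924 and 2.55 in DKD. CGB7, counted as above in KDM5C-KD and in DKD, was near the filter. It had 0.234 FPKM in Control, 0.277 and 0.525 in TRIM11-KD, 0.632 and 0.854 in KDM5C-KD, and 0.447 and 0.693 in DKD. Like PSG3, CGB7 passed through the KDM5C-KD lines, as its mean over the other libraries was under 0.5 FPKM. The imprinted gene PEG10 (chromosome 7) had 24.7 FPKM in Control, 26.6 and 14.2 in TRIM11-KD, 64.4 and 177 in KDM5C-KD, and 22.9 and 23.2 in DKD. Its 2 KDM5C-KD lines were the highest and its DKD lines were near Control, as in PSG1. TFPI2, an inhibitor of serine proteases, went another way, with 13.6 FPKM in Control, 14.9 and 5.85 in KDM5C-KD, and 59.0 and 26.6 in DKD. KISS1, made by trophoblast and known to restrain metastasis, had 271 FPKM in Control, 305 and 377 in KDM5C-KD, and 144 and 277 in DKD. None of the 7 passed limma in DKD against TRIM11-KD, and their median log2 difference was 0.23, of the opposite sign to that of the PSG genes.

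The fold of 1.5 against Control, asked of both lines of a knockdown, was also applied to relatives and neighbours of the PSG genes. In KDM5C-KD 5.22% of all genes passed it upwards and 3.97% downwards, and in DKD 5.71% and 4.87%. No relative or neighbour passed it in TRIM11-KD (3.25% and 2.58% of all genes). Of 12 CEACAM genes, 9 were at 0 in every library and only CEACAM19 passed the filter, with 2.78 FPKM in Control and 1.505 and 1.34 in DKD. Of 26 genes on either side of the cluster, 19 passed the filter, and 1 of them, ZNF428, exceeded Control by at least 1.5 times in the KDM5C-KD and DKD lines, while POU2F2 was below in both KDM5C-KD lines. CD177, the nearest listed gene above PSG9, had 2.16 FPKM in Control, 2.61 and 8.22 in KDM5C-KD, and 1.77 and 1.72 in DKD. PLAUR, PAFAH1B3, GSK3A and ERF, the most expressed neighbours, had limma differences between 0.12 and 0.22 in DKD against TRIM11-KD. None of the 19 passed the test, and their median was 0.17.

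RNA of 12 of the 13 genes sought for proteins that PSG are known to bind passed the filter, and ITGA2B, an integrin chain, did not (0.0696 to 0.349 FPKM). LGALS1, a galectin, had 1320 FPKM in Control and 1060 to 1334 in the knockdown lines, and ITGB1, another integrin chain, had 437 FPKM in Control and 285 to 444 in the others. TGFB2, a growth factor secreted in latent form, was at least 1.5 times above Control in both TRIM11-KD lines (3.25% of all genes). It had 98.3 FPKM in Control, 172 and 150 in TRIM11-KD, 154 and 76.3 in KDM5C-KD, and 119 and 101 in DKD. SDC2, a heparan sulfate proteoglycan, was at least 1.5 times below Control (19.8 FPKM) in both TRIM11-KD (2.58% of all genes) and both KDM5C-KD lines (3.97%). None of the 12 binding partners tested passed limma in DKD against TRIM11-KD, with a median difference of -0.05.

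Transcription factors linked to PSG promoters or to the syncytiotrophoblast were also followed, and 12 were tested. Among these 12, GATA3 alone was at least 1.5 times above Control in both DKD lines (5.71% of all genes). None was so in TRIM11-KD (3.25%) or KDM5C-KD (5.22%). KLF6, known to act on PSG promoters, had 65.2 FPKM in Control, 78.0 and 75.8 in TRIM11-KD, 71.3 and 47.5 in KDM5C-KD, and 71.7 and 67.3 in DKD. PPARG is a regulator of trophoblast differentiation. It had 37.3 FPKM in Control, 42.3 and 29.3 in TRIM11-KD, 50.5 and 53.7 in KDM5C-KD, and 27.5 and 26.3 in DKD. Its DKD lines were the 2 lowest libraries, with TRIM11-KD2 close above them. None of the 12 passed limma in DKD against TRIM11-KD, and their median difference was -0.03.

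Outside the family, 95 of 12625 genes had a Pearson r of at least 0.9 with the log2 of the summed PSG level over the 7 libraries. The 10 most alike were ARHGEF17 (0.991), COX7B2 (0.984), LOC100507377 (0.981), MGC16275 (0.979), HIST1H4H (0.975), PLCD3 (0.972), SLC6A8 (0.968), CPA4 (0.966), CTU2 (0.964) and GALC (0.964). CPA4, a secreted carboxypeptidase, had 44.4 FPKM in Control, 48.6 and 78.4 in TRIM11-KD, 65.6 and 170 in KDM5C-KD, and 29.0 and 90.1 in DKD. As in PSG2 and PSG5, KDM5C-KD2 and DKD2 were its 2 highest libraries and DKD1 and Control its 2 lowest. ARHGEF17, a guanine nucleotide exchange factor, followed the sum within a narrow range, from 10.9 FPKM in DKD1 to 15.0 FPKM in KDM5C-KD2. Among the members themselves, PSG2 had the highest r with the sum (0.944), followed by PSG4 (0.898), PSG8 (0.895) and PSG5 (0.891), and PSG11 had the lowest (0.144), although each member is itself part of the sum.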

How the data were processed

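RNA of 7 MDA-MB-231 libraries was measured by poly(A) RNA-Seq with a non-directional kit and paired reads of 150 bases. The authors trimmed the reads (FastQC, Cutadapt), mapped them with HISAT2 to hg19 and deposited FPKM values from Cufflinks with default settings, 1 column a library. The processing notes also name Bowtie 0.12.2. Strand was not kept, read numbers are not in the table, and depth is unknown.

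Of 26006 rows, 27 with symbols turned into dates were left out, and of rows sharing a symbol the one with the highest mean was used (24523 symbols). Genes with a mean of at least 0.5 FPKM (12636) were tested on log2(FPKM + 1) with limma 3.58.1 in R 4.3.3 (lmFit, eBayes with a trend, 3 knockdown groups, Benjamini-Hochberg adjustment). A fold change on this scale is understated in low genes. Against Control a gene was counted when both lines passed a fold of 1.5. The code was tested on simulated data. Members and gene lists were chosen with earlier results of these data known. The text names the 10 members, PSG10P, the targeted genes, up to 4 genes with the highest mean from each list and the 10 genes most alike, plus list genes past the fold of 1.5, HSD3B1, CD177, cell line markers and placental genes at 0, which were added after their values were seen. RXRA, ERVW-1 and XAGE2 had no entry under those symbols. Transcripts and positions are from GENCODE for hg19, promoters from RefSeq, aligned with Biopython 1.88. Python 3.11.15, pandas 2.3.3, numpy 2.4.6 and matplotlib 3.10.9 were used. Alternatives varied the pseudocount, filter, scaling, shared symbols, trend, block, fold and libraries. ChIP-Seq data were not analysed here.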

Additional observations from a re-analysis of the deposited data

Results flagged for a closer look

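For 5 members the lines with a KDM5C guide moved one way without a TRIM11 guide and the other way with one. In PSG1, PSG3, PSG4, PSG7 and PSG11 both KDM5C-KD lines were above Control, while DKD1 was below TRIM11-KD1 and DKD2 below TRIM11-KD2. Of all 12636 genes, 8.54% met the same rule. As log2 ratios of group means, KDM5C-KD against Control and then DKD against TRIM11-KD, the values were 2.06 and -0.62 for PSG1, 0.91 and -1.59 for PSG3, 0.87 and -0.55 for PSG4, 2.39 and -1.85 for PSG7, and 0.80 and -0.98 for PSG11. PSG3 passed the filter only through KDM5C-KD (a mean of 0.453 FPKM over the other libraries), so the filter favoured its first value. Its second value rests on low levels. On the log2(FPKM + 1) scale that difference was -0.42, and -0.06 once TRIM11-KD1 was left out. For no member was the difference between the ratios tested, since Control is 1 library. The first ratio also belongs to the contrast on which the family was selected. TRIM11 mRNA was not lowered in TRIM11-KD1 or DKD1, as labelled, and the part of this in the values was not tested.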

How the results depend on the processing

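No PSG gene had an adjusted p under 0.05 in DKD against TRIM11-KD under any alternative run, and the lowest adjusted p of a member was 0.209. The number of genes called over the whole table was 0, and it was 1 with a pseudocount of 0.1 or 0.5, with no filter or with scaling to total FPKM, 2 with no trend and 0 to 7 when 1 library was left out. Leaving out 1 library put PSG2 between -1.055 and 1.32, PSG5 between -0.50 and 0.83 and PSG4 between -1.26 and 0.065 on the log2 scale. PSG1 (-0.89 to -0.18), PSG3 (-0.78 to -0.06), PSG6 (-2.42 to -0.71), PSG7 (-1.43 to -0.34), PSG8 (-1.20 to -0.23), PSG9 (-1.83 to -0.93) and PSG11 (-0.53 to -0.16) stayed below 0. Without both libraries labelled TRIM11-KD1 and DKD1, an alternative added after seeing the data in which the spread comes from KDM5C-KD alone, 6 genes and no member were called, and PSG8 turned from -0.71 to 0.17. Same-numbered lines of TRIM11-KD and DKD share a TRIM11 guide, those of KDM5C-KD share only the number, and no shared culture is stated. With the replicate block (line number over 6 libraries, or TRIM11 guide over 4) 0 genes and 0 members were called, and the deviations of TRIM11-KD1 and DKD1 correlated at 0.371, those of KDM5C-KD1 and DKD1 at 0.273 and those of TRIM11-KD1 and KDM5C-KD1 at 0.088. Against Control, a fold of 2 left 2 members higher in KDM5C-KD (261 of all genes) and 1 lower in DKD (231). A pseudocount of 1 before the ratio left 4 members higher in KDM5C-KD (336 of all genes) and 1 lower in DKD (368). Judged by the mean of the lines, 8 members were higher in TRIM11-KD (840 of all genes) and 2 in DKD (1243). With TRIM11-KD1 alone, 5 members were higher (698 of all genes) and 0 lower (548). With TRIM11-KD2 alone, 4 were higher (1101) and 1 lower (1194). For KDM5C-KD1 alone the counts were 7 higher (1030) and 1 lower (776), and for KDM5C-KD2 alone 7 higher (1454) and 1 lower (1648). For DKD1 alone they were 0 higher (1200) and 6 lower (1097), and for DKD2 alone 3 higher (1432) and 4 lower (1552). The summed ratio of KDM5C-KD to Control was 1.74 to 3.12 and that of DKD to TRIM11-KD 0.484 to 1.14 with 1 line left out, and DKD to TRIM11-KD was 0.582 without PSG5. The causes of these shifts were not tested. With 1 Control library, no read numbers and 2 lines a group, differences under several fold in single members could not be resolved.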

Other observations

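The series also holds FPKM values of mammary tumours from MMTV-PyVT mice, 3 with Trim11+/+ and 3 with Trim11+/-, all at 3 months of age. Rodents have a Psg family of their own, made by the placenta as in humans. Of 14 mouse Psg entries, 10 were listed at 0 in all 6 tumours. The other 4 reached at most 0.133 FPKM, for Psg17, and the summed mouse Psg level was between 0 and 0.0785 FPKM in the Trim11+/+ tumours and between 0.0209 and 0.150 FPKM in the Trim11+/- tumours. The mouse and human tables were made separately, so the levels of the 2 are not compared.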
